A study of Mus musculus with 26 samples.

Results

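The vacuolar proton pump genes among the C-to-U edited transcripts of mouse macrophages were Atp6ap2, Atp6ap1, Atp6v0e and Atp6v1c1, taken by gene symbol from the deposited list of edited sites in bulk RNA and from the list of edited sites in single cells. They were 4 of the 316 genes named in either list and carried 22 of its 526 distinct sites. Atp6ap2 had 16 of the 22 sites, Atp6ap1 had 4, and Atp6v0e and Atp6v1c1 had 1 each. The bulk list held 12 of the sites, all in Atp6ap2 and Atp6ap1, and the single-cell list held 17, with 7 sites in both.

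The macrophages were grown from the bone marrow of C57BL/6J mice in medium with 20 ng/mL M-CSF, the growth factor that drives marrow precursors to become macrophages, and were harvested 7 to 9 days after isolation. One bulk library came from wild-type macrophages and one from Apobec1 -/- macrophages, which lack the deaminase that converts cytidine to uridine in mRNA, and 24 libraries came from single wild-type macrophages captured on a microfluidic chip. A deaminated base is read as T where the genome has C, and the editing rate is the share of reads at a site that carry the T. The knockout library entered the bulk list through its filter alone, so rates were read in wild-type cells and no difference between genotypes was tested. In the sources used here, no comparison with the knockout is given for the 10 pump gene sites of the single-cell list alone. The Atp6v0e and Atp6v1c1 sites are among these.

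The vacuolar proton pump is a rotary enzyme that uses ATP to move protons into lysosomes, endosomes and phagosomes, where macrophages digest what they take up. Its V1 sector, on the cytosolic side, hydrolyses ATP, and its V0 sector, in the membrane, carries the protons. Atp6ap1, also called Ac45, and Atp6ap2, also known as the (pro)renin receptor, are accessory proteins of the membrane sector. Atp6v0e encodes a small subunit of that sector, and Atp6v1c1 encodes subunit C of V1, which bridges the catalytic head and the membrane sector.

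All 22 sites lay in 3′ untranslated regions on the plus strand of the mm10 (GRCm38) genome, so no listed site changed a codon of a pump protein. Sites are named here by gene and by their distance in nucleotides after the stop codon. The Atp6ap2 sites lay in exon 9, the last exon, between chrX:12615988 (+115) and chrX:12616752 (+879) of a 3′ untranslated region 1176 nucleotides long. The Atp6ap1 sites lay in exon 10, also the last, between chrX:74304306 (+300) and chrX:74304403 (+397) of a region of 715 nucleotides. The Atp6v0e site was at chr17:26699345 (+170) in exon 4, and the Atp6v1c1 site at chr15:38691904 (+197) in exon 13. The sequences below are RefSeq reference sequence of the plus strand, 5′ to 3′, with each listed edited cytidine in capitals. They show the densest cluster of Atp6ap2, the Atp6ap2 sites with the highest bulk rate and with the highest mean relative to bulk, the closest pair of Atp6ap1, and the single sites of the subunits.
Atp6ap2 +500, +509, +514 and +525, chrX:12616371-12616400: atCgcttagttCtggaCgtgtatatgaCta
Atp6ap2 +608, chrX:12616466-12616495: aaattattaaaaataCtatgttgatttcag
Atp6ap2 +323, chrX:12616181-12616210: actcgcgctggagaaCgcactgggtttctt
Atp6ap1 +387 and +397, chrX:74304384-74304413: ttccagcaaCagccatgaaCttgaggttcc
Atp6v0e +170, chr17:26699330-26699359: ccttcaccttttttaCactctgaattatgt
Atp6v1c1 +197, chr15:38691889-38691918: gtctgtaaatgtgtaCtgaaaaaaatcaga

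An A stood directly before the edited cytidine at 18 of the 22 sites, against 85.0% of the 526 sites of both lists. The 4 exceptions had a T there: Atp6ap1 +300 and Atp6ap2 +500, +509 and +879. In the printed Atp6ap2 cluster, 2 of the 4 edited cytidines followed an A and 2 followed a T. A G followed the edited cytidine at 4 of the 22 sites, against 7.03% of all listed sites, and all 4 were in Atp6ap2, at +323, +375, +500 and +514. The tetramer TGAT, part of the mooring sequence that lies downstream of the edited base in the Apob mRNA, was searched on the transcript strand in the 20 bases after each site. It was found at 3 of 22 sites, against 11.2% of all listed sites, and the 3 were Atp6ap2 +178, +402 and +608. A match of this kind is a description of the letters and no sign that a factor binds.

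The 3′ untranslated region of Atp6ap2 held 165 cytidines, 56 of them after an A, and 13 of these 56 were listed as edited, or 23.2 per 100. In Atp6ap1 3 of 32 cytidines after an A were listed, in Atp6v0e 1 of 29 and in Atp6v1c1 1 of 34. Per cytidine after an A, Atp6ap2 had more listed sites than the other 3 genes. No read depth is given for positions that are not listed, so an unlisted cytidine may have been unedited or too thinly covered.

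Both pump genes of the bulk list had at least 3 sites, as did 10.5% of the 275 genes of that list. Atp6ap2, with 9, shared the second rank with Lamp2, which encodes a major protein of the lysosomal membrane, after App with 12. In the single-cell list Atp6ap2 had 11 sites and was second of 89 genes, again after App, with 15. Of the 12 bulk sites of the pump genes 7 were also in the single-cell list, against 13.4% of all bulk sites. Read from the other side, 7 of the 17 single-cell sites were in the bulk list, against 32.2% of all 171 single-cell sites. The pump gene sites of the bulk list had a median depth of 68.5 reads, against 29 at its other sites. Whether the overlap of the lists follows depth was not tested.

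**Figure D1:**
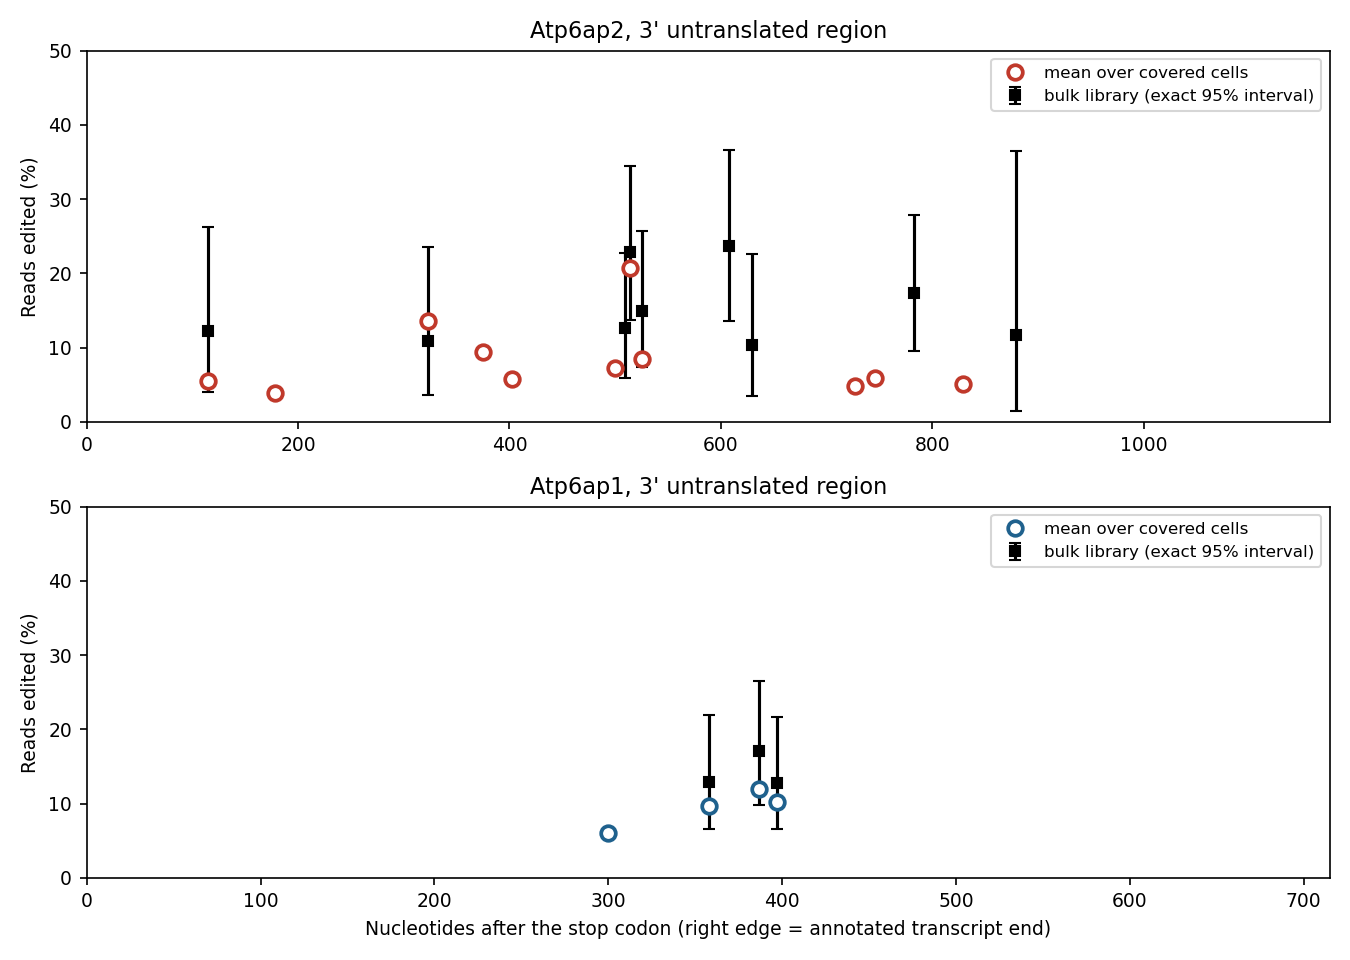
Editing rate (%) against distance after the stop codon (nucleotides) for the listed sites of Atp6ap2 (top) and Atp6ap1 (bottom). Black squares are the bulk wild-type library with the exact 95% interval of the counted reads, and open circles are the mean over the single cells in which the site was covered. Atp6ap2 sites stretched from +115 to +879 and Atp6ap1 sites from +300 to +397, and the circles lay below the squares at 6 of the 7 sites that have both.

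In the bulk wild-type library the Atp6ap2 sites were read between 17 and 75 times and were edited in 10.4% to 23.7% of the reads. The highest rate was at +608, where 14 of 59 reads were edited, 23.7% (exact 95% interval 13.6% to 36.6%). The next was +514, with 16 of 70 reads, 22.9% (13.7% to 34.4%). These were the 2 of 12 pump gene sites with a rate above 20%, against 10.0% of all bulk sites. At +783 13 of 75 reads were edited, 17.3%, and at +525 10 of 67, 14.9%. At +509 9 of 71 reads were edited, 12.7%, and at +115 5 of 41, 12.2%. The remaining sites were +879 with 2 of 17 reads (11.8%), +323 with 5 of 46 (10.9%) and +629 with 5 of 48 (10.4%). The intervals of all 9 sites overlapped, so at this depth no order among them was resolved beyond counting error. Over the 9 sites 79 of 494 reads were edited, 16.0%, although neighbouring sites can share reads. A bulk rate pools all cells of the culture, so fewer edited cells and a lower rate in each cell cannot be told apart in it.

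The 3 bulk sites of Atp6ap1 lay within 40 nucleotides and had nearly the same depth. At +358 11 of 85 reads were edited, 12.9% (6.64% to 22.0%). At +387 15 of 88 reads were edited, 17.0% (9.87% to 26.6%). At +397 11 of 86 reads were edited, 12.8% (6.56% to 21.7%). The intervals overlapped for all 3 sites. The pump gene sites were read more deeply than the rest of the bulk list, with a median of 68.5 reads per site against 29 for the other 398 sites, while the median rates were 12.9% and 11.8%. The intervals cover counting error only.

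Each site of the single-cell list had been kept if at least 3 cells were edited there. The deposited cell columns carry no cell names, so cells are numbered 1 to 24 by column. The read depth of a pump gene site in a cell is unknown, so a rate in 1 cell has no interval, and a rate of 0 may be a site read only a few times. The pump gene sites were covered in 381 of 408 combinations of site and cell, and 130 of the 381 values, 34.1%, were above 0, against 35.7% at the other listed sites. Of the 17 sites 9 were edited in at least 6 cells, against 49.7% of all single-cell sites. Likewise 9 of the 17 had both a covered cell at 0 and a cell above 50%, against 50.3% of all sites. By both counts the pump gene sites were near the list as a whole.

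**Figure D2:**
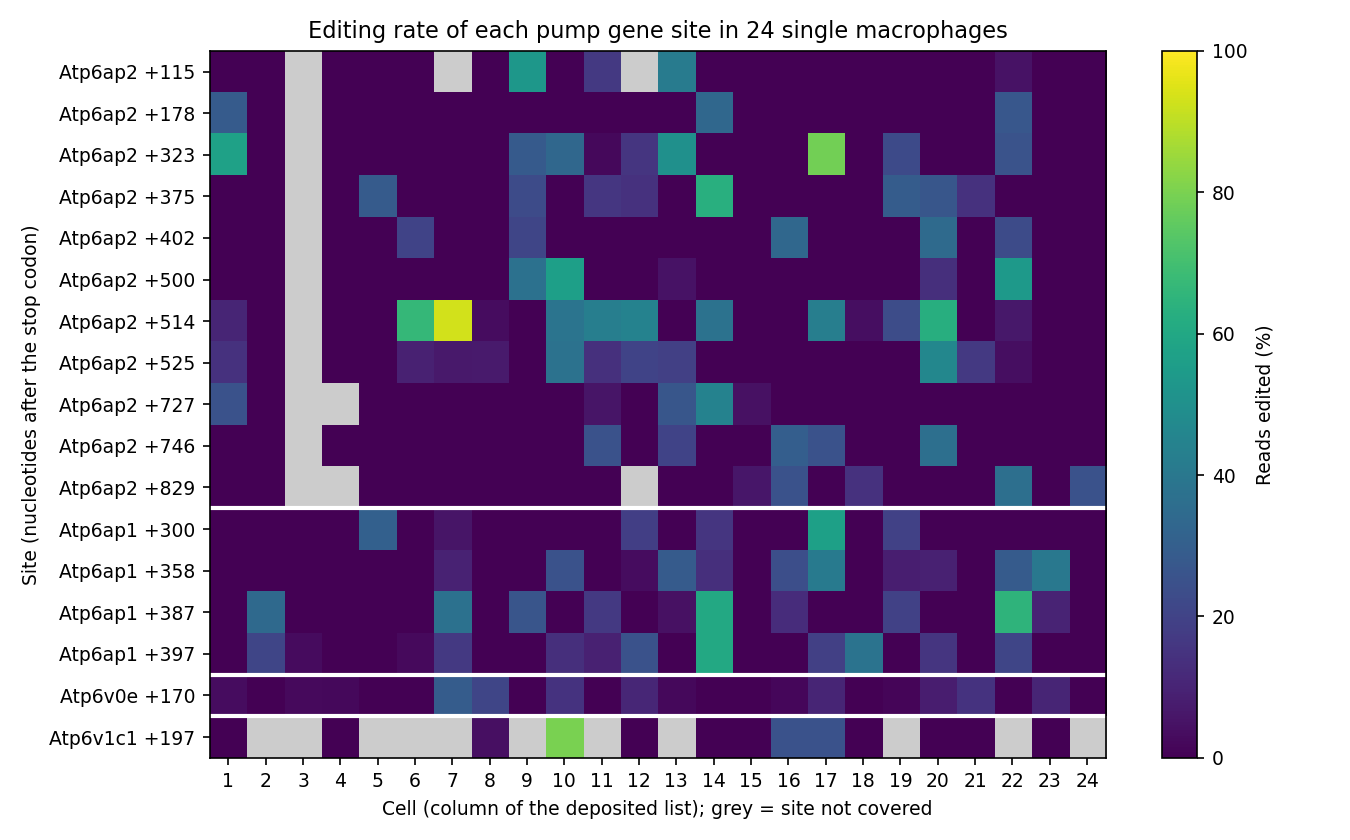
Editing rate (% of reads, colour) at the 17 pump gene sites of the single-cell list (rows, named by gene and nucleotides after the stop codon) in each of 24 cells (columns), with grey for a site not covered in that cell. Most covered values were 0, and single bright cells reached 93.3% at Atp6ap2 +514 in cell 7 and 80.0% at Atp6v1c1 in cell 10. Cell 3 was not covered at any Atp6ap2 site.

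Atp6ap2 +514 had the largest SD of the pump gene sites and also the highest mean. It was edited in 13 of 23 covered cells, with a lowest rate of 0%, a median of 3.85% and a highest of 93.3%, in cell 7, and a mean of 20.7% ± 27.4 (SD over 23 cells). Cells 6, 7 and 20 were above 50%, at 66.7%, 93.3% and 62.5%. Cells 10, 11, 12, 14 and 17 lay between 37.5% and 44.4%, cell 19 was at 23.1% and cell 1 at 10.5%, and cells 8, 18 and 22 were at 6.25% or less. The other 10 covered cells were at 0%. By SD it ranked number 3 among the single-cell sites covered in at least 20 cells, and by its highest cell number 3 among all 171 sites. In bulk the same site was at 22.9%, and 8 of the 23 cells were above the upper end of the bulk interval. That interval covers counting error of the bulk reads and not the spread of cells. The cell rates have no interval, so this count does not show which cells truly exceeded the bulk rate.

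Atp6ap2 +323 had the second highest mean of the group, 13.6% ± 22.4 (SD, 23 cells). Its lowest and median rates were 0% and its highest was 78.6%, in cell 17, and 9 cells were edited. It was the one pump gene site of 7 with a mean over cells above its bulk rate, by a ratio of 1.25. The bulk rate at +323 came from 5 of 46 reads, and its interval, 3.62% to 23.6%, held the mean over cells. At the other 6 sites the mean was below the bulk rate, as it was at 92.7% of the 55 sites in both lists. The ratios at the remaining Atp6ap2 sites were 0.904 at +514, 0.565 at +525 and 0.454 at +115. The 3 ratios of Atp6ap1 lay between 0.699 and 0.796. The median ratio was 0.744 over the 7 pump gene sites and 0.577 over the other 48 sites in both lists, with SDs over sites of 0.258 and 0.223. The mean counts each covered cell equally, whereas the bulk rate counts reads, and both lists were filtered on editing. The ratio is therefore given as a description.

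At the other Atp6ap2 sites the median over covered cells was 0%. Site +525 was edited in 11 cells, with a highest rate of 46.2% in cell 20 and a mean of 8.43% ± 12.6 (SD, 23 cells). Site +375 was edited in 8 cells, up to 63.2% in cell 14, with a mean of 9.36% ± 15.9 (SD, 23 cells), although it was not in the bulk list. Site +500 was edited in 5 cells, up to 56.3% in cell 10 and 54.3% in cell 22. The remaining 6 sites, +115, +178, +402, +727, +746 and +829, were edited in 3 to 5 cells, with highest rates of 33.3% to 52.9%. Some of these means rested on few cells. The mean at +115 was 5.54% with all cells and 3.17% without cell 9. Without cell 14 the mean at +727 moved from 4.82% to 2.93%. At +178, where the 3 edited cells lay between 27.3% and 33.3%, the mean moved from 3.88% to 2.54% without cell 14.

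Of the 9 bulk sites of Atp6ap2, 5 were not in the single-cell list, and their rates and depths spanned those of the 4 that were. The 5 sites, among them +608, the highest of the gene, had bulk rates of 10.4% to 23.7% with a median of 12.7%, and the 4 sites in both lists had 10.9% to 22.9% with a median of 13.6%. The median depths were 59 and 56.5 reads. Single-cell values for these 5 sites were not analysed here.

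The 4 Atp6ap1 sites were covered in all 24 cells. Site +397 was edited in 12 cells, with a lowest rate of 0%, a median of 1.25%, a highest of 60.5% in cell 14 and a mean of 10.2% ± 15.1 (SD, 24 cells). Cell 18 followed at 38.1% and cell 12 at 25%. Cells 2, 7, 10, 17, 20 and 22 lay between 13.5% and 21.1%, cell 11 was at 9.09%, cells 3 and 6 were at 2.94% and 2.50%, and the other 12 cells were at 0%. Site +387 was edited in 10 cells, with a highest rate of 65.0% in cell 22, a second of 60.5% in cell 14, and a mean of 11.9% ± 19.4 (SD, 24 cells). Site +358 was edited in 11 cells and reached the lowest maximum of the 4, 41.2% in cell 17, with a mean of 9.62% ± 13.7 (SD, 24 cells). Site +300, the site not in the bulk list and the one with a T before the cytidine, was edited in 6 cells, up to 56.8% in cell 17, with a mean of 6.10% ± 13.6 that fell to 3.89% without cell 17.

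The single Atp6v0e site was edited in more cells than any other pump gene site, 14 of 24, and at low rates. Its lowest rate was 0%, its median 2.05% and its highest 29.1%, in cell 7, and the mean was 5.52% ± 7.82 (SD, 24 cells). Cell 8 was at 20.8%, cells 10 and 21 at 14.8% and 14.6%, cells 12, 17 and 23 between 10.3% and 10.7%, and cell 20 at 8.11%. The other 6 edited cells (1, 3, 4, 13, 16 and 19) lay between 1.45% and 3.39%. Over its edited cells the mean was 9.46%, against a median of 26.9% for the same quantity over the 17 pump gene sites. No other pump gene site had so small an SD. A low rate can appear only where many reads cover the site. The depth per cell is unknown, so whether the count of edited cells and the low rates follow depth was not tested. The Atp6v1c1 site was the least covered, in 13 cells, and 4 of them were edited, at 80.0% in cell 10, 25% in cells 16 and 17 and 4.00% in cell 8. Its mean of 10.3% ± 22.9 (SD, 13 cells) was 4.50% without cell 10, and 5.58% over all 24 cells with the uncovered ones taken as 0.

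Within a cell the sites of Atp6ap2 were edited in different combinations. Of the 23 cells covered at any Atp6ap2 site, 18 were edited at 2 or more sites and 3 (cells 2, 4 and 23) at none, although 11, 9 and 11 of the sites were covered in them. Cell 22 was edited at 8 of 11 sites and cell 11 at 7 of 11. The mean rate over the covered Atp6ap2 sites of a cell ran from 0% to 20.0%, in cell 20, with a median of 8.71%. In Atp6ap1, 6 of the 24 cells (1, 4, 8, 15, 21 and 24) were edited at none of the 4 sites and cells 7 and 14 at all 4. The highest mean over the 4 sites was 37.4%, in cell 14, and the median was 7.93%. Both genes were edited in 15 of 23 cells and neither in 1, cell 4. That cell had 1 edited pump gene site, Atp6v0e, at 2.25%, and cell 24 also had 1. Of the covered sites outside the pump genes, a median of 36.1% were edited per cell. This share was lowest in cells 24 (22.6%), 4 (24.8%) and 23, so little editing in them was not particular to the pump genes. It was 47.5% in cell 22 and 36.1% in cell 11. Cell 2, with no edited Atp6ap2 site, was at 32.6%, and cell 20, with the highest Atp6ap2 mean, at 28.6%.

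The closest Atp6ap2 pair with values in single cells was +514 and +525, 11 nucleotides apart, so that 1 read of 100 nucleotides can cover both. Both sites were edited in 9 of 23 cells, +514 alone in 4, +525 alone in 2 and neither in 8. Cell 20 was high at both, at 62.5% and 46.2%, and cell 10 had nearly equal rates, 38.5% and 37.5%. Cell 7, in contrast, had 93.3% at +514 and 6.67% at +525, and cell 6 had 66.7% and 9.09%. In the other cells edited at both, the rates were 42.9% and 13.8% in cell 11, 44.4% and 20.0% in cell 12, 10.5% and 14.3% in cell 1, 6.25% and 3.85% in cell 22, and 3.13% and 7.14% in cell 8. The rate was higher at +514 in 11 cells and at +525 in 4. Pearson's r over the 23 cells was 0.423 and Spearman's rho 0.489, and r was between 0.289 (without cell 20) and 0.541 (without cell 7) when 1 cell was left out.

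Site +500 lay 14 nucleotides before +514 and 25 before +525. It was edited together with +514 in 3 of 23 cells, with +500 alone in 2, +514 alone in 10, neither in 8, and r of -0.01. With +525 it was edited together in 4 cells, with +500 alone in 1, +525 alone in 7, neither in 11, r of 0.34 and rho of 0.41. Its 5 edited cells differed in which neighbours were edited too. All 3 sites were edited in cell 10, at 56.3%, 38.5% and 37.5%, in cell 20, at 13.3%, 62.5% and 46.2%, and in cell 22, at 54.3%, 6.25% and 3.85%. Cell 13 had 5.00% at +500, 0% at +514 and 18.8% at +525, and cell 9 had 37.1% at +500 and 0% at both others. The pair +727 and +746, 19 nucleotides apart, was edited together in 2 of 22 cells, cell 11 (5.56% and 25%) and cell 13 (26.7% and 20.0%), with r of 0.01. The pair +375 and +402, 27 apart, was edited together in 2 of 23 cells, cell 9 (22.9% and 20.9%) and cell 20 (26.9% and 34.6%), with r of 0.04.

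In Atp6ap1 +387 and +397 lay 10 nucleotides apart. Both were edited in 5 of 24 cells, +387 alone in 5, +397 alone in 7 and neither in 7. Cell 14 had the same rate at both, 60.5%. Cell 22 had 65.0% and 21.1%, cell 7 had 37.1% and 16.7%, cell 2 had 34.3% and 20.9%, cell 11 had 16.7% and 9.09%, and cell 18 had 0% at +387 and 38.1% at +397. Pearson's r was 0.533 and fell to 0.261 without cell 14, and Spearman's rho was 0.237. Sites +358 and +387, 29 nucleotides apart, were edited together in 7 cells, with r of 0.20. In these cells +358 was the higher site in cells 13 (28.6% and 4.35%), 16 (24.1% and 12.5%) and 23 (40.0% and 10.0%). Site +387 was the higher in cells 7 (9.38% and 37.1%), 14 (13.5% and 60.5%), 19 (8.33% and 19.4%) and 22 (28.6% and 65.0%).

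**Figure D3:**
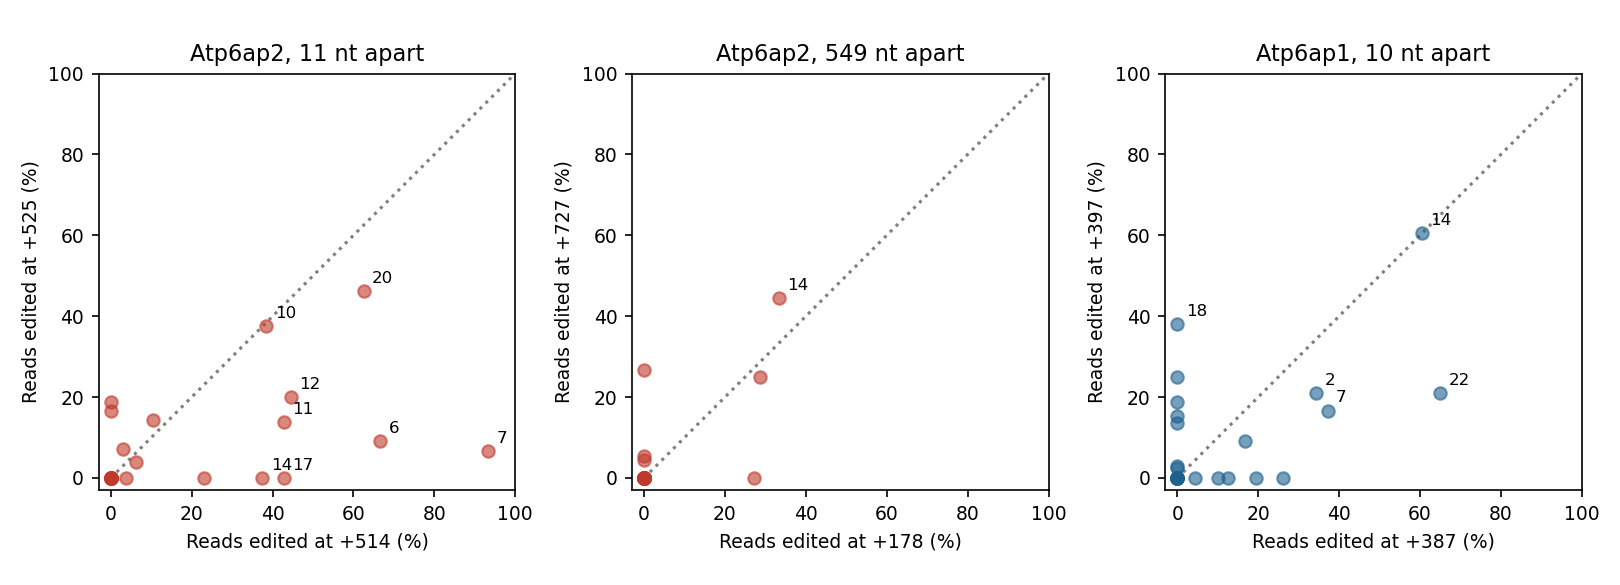
Editing rate (%) of one site against another of the same gene, 1 point for each cell covered at both, with cells above 30% at either site numbered. The panels show Atp6ap2 +514 and +525 (left), Atp6ap2 +178 and +727 (centre) and Atp6ap1 +387 and +397 (right), and the dotted line marks equal rates. Cell 7 lay far below the line on the left, and cell 14 lay on it on the right.

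Over all 55 pairs of Atp6ap2 sites the median r was 0.04, with a range of -0.32 to 0.69 and an SD over pairs of 0.224, and 35 of the 55 coefficients were above 0, against 125 of 255 for pairs of other genes. The 6 pairs of Atp6ap1 had a median of 0.21, from -0.04 to 0.53. The pairs of other genes had a median of -0.01, App, among them, one of 0.02 over 105 and Lamp2 one of -0.10 over 10. Pairs of 1 gene share sites, cells and reads, so they are not independent of each other, and coefficients this close to 0 are no finding in sparse values. The highest coefficient of Atp6ap2 joined +178 and +727, 549 nucleotides apart. It was 0.69 over 22 cells, rested on 2 cells in which both were edited (cells 1 and 14) and was 0.42 without cell 14. Pairs closer than a read did not have higher coefficients in Atp6ap2: the median was 0.01 over 10 pairs under 100 nucleotides and 0.13 over 45 pairs farther apart.

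**Figure D4:**
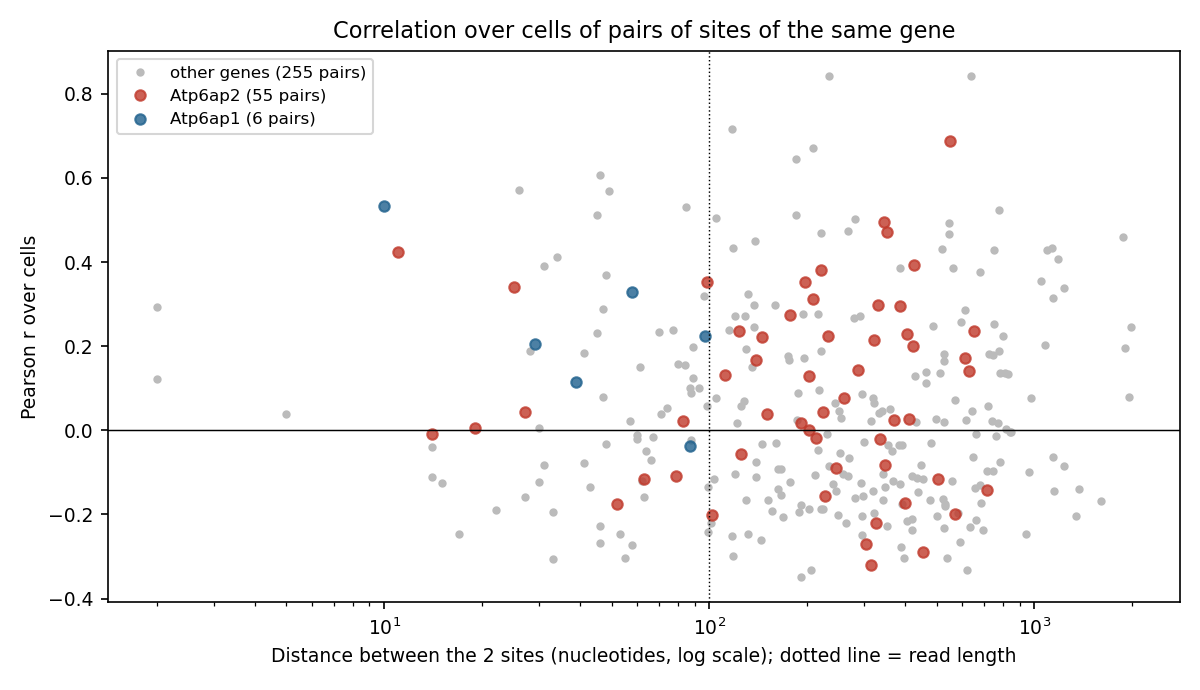
Pearson's r over cells against the distance between the sites (nucleotides, log scale) for pairs of sites of the same gene, 55 of Atp6ap2, 6 of Atp6ap1 and 255 of other genes in grey. The dotted line marks the read length of 100 nucleotides. The pump gene points spread over the same heights as the grey points, and the closest pump gene pairs, 10 and 11 nucleotides apart, lay at 0.53 and 0.42.

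Between genes, the mean rate of a cell over its covered Atp6ap2 sites and over its Atp6ap1 sites had r of 0.45 and rho of 0.31 over 23 cells. Each of these genes had r of 0.39 and 0.37 with the mean rate of all other listed sites in the cell, and the second of these was 0.20 without cell 22. The coefficient of Atp6v0e was 0.01 with Atp6ap2 and 0.03 with Atp6ap1. The cells share library preparation, and their depth at these sites is unknown, so these values are given as descriptions.

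The sites of other genes with the most similar rates over cells were sought among those covered together with the pump gene site in at least 20 cells and edited in at least 6 of these, by Pearson's r. For Atp6ap2 +514, 74 sites were compared, with a median r of -0.01. The 3 most alike were in Cdk14, a cyclin-dependent kinase, at 0.57, in Anxa5, a phospholipid-binding annexin, at 0.57, and the Atp6v0e site at 0.45. All 3 had cell 7 as the cell that mattered most, and without it they were 0.26, 0.39 and 0.12. Spearman's rho over all cells was 0.40, 0.34 and 0.26. For Atp6v0e, 82 sites were compared. The most alike were in Cdk14 at 0.68, in B2m, the light chain of class I histocompatibility molecules, at 0.59, and Atp6ap2 +514. Without cell 7 the first 2 were 0.40 and 0.37, and their rho over all cells was 0.38 and 0.48. For Atp6ap1 +397, among 79 sites, they were in Nptn, Capza2 and Arl8b, at 0.64, 0.57 and 0.57, and without cell 14 these were -0.12, 0.37 and 0.35. Spearman's rho over all cells was 0.07, 0.50 and 0.27, and 3, 6 and 3 cells were edited at both sites. Each coefficient here is for 1 site of the named gene and not for its other sites. Nptn encodes a membrane glycoprotein, Capza2 an actin-capping subunit and Arl8b a small GTPase that moves lysosomes. The Atp6v1c1 site was covered in too few cells for this comparison.

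Of 26 genes of the pump and its accessory proteins, the 4 described here were the ones in either list. The catalytic subunit A gene and the subunit a genes of the membrane sector, for example, had no listed site. Of 10 genes for assembly and regulation of the pump, Oxr1 had 1 bulk site, at 10.5%. Of 19 genes whose products act with the pump at the lysosomal membrane, 3 were listed: Lamp2, Ostm1, a partner of a lysosomal chloride transporter, at 15.0%, and Rragc, a GTPase of the nutrient-sensing complex, at 17.6%. Lamp2 had 9 bulk sites, from 10.0% to 38.5%, and 5 single-cell sites edited in 3 or 4 cells each. The 11 Atp6ap2 sites were edited in 3 to 13 cells, with a median of 5. The 154 single-cell sites outside the pump genes were edited in 3 to 24 cells, also with a median of 5. Lamp2 was covered in 81.7% of its combinations of site and cell and Atp6ap2 in 93.9%. The 4 pump genes were taken because they are listed, and the number of genes that could have been listed is not known here. These counts therefore have no share over all genes beside them and do not show whether pump genes are listed more or less often than others. Absence from the lists cannot be told apart from low coverage.

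The lists hold edited sites and not expression levels, so the macrophage label could not be checked against its markers from them. The paper's methods state that maturation was checked by flow cytometry of surface markers before the cells were collected. Of 12 macrophage markers Cybb, Itgam and Msr1 had an edited site, and whether a marker is listed does not show whether it was expressed. The level of Apobec1 in each library was not analysed here.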

How the data were processed

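Per the submitters' processing notes, the tools were Trim Galore 0.2.5, TopHat2, Bowtie and Picard, with mm10 as the genome build, and the authors' methods add that duplicate reads were removed. They compared 1 wild-type with 1 Apobec1 -/- bulk library, and the deposited bulk list gives, per site, the count of reads and the fraction of them edited. The deposited single-cell list gives the fraction of reads edited in each of 24 cells, without depth, for sites edited in at least 3 cells, and its empty entries were read as not covered. Whether other filters were applied to it is not given in the sources used here.

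Edited reads were depth multiplied by fraction, a whole number within 0.001 at all 410 bulk sites. For each bulk rate the 95% interval is exact (Clopper-Pearson), and the lowest depth was 17 reads. Sites were matched by chromosome and position and placed on GRCm38 with RefSeq sequence and GENCODE annotation. Means, SDs and correlations used covered cells, with pairs covered together in at least 10 cells. With 1 bulk library per genotype, and cells that are not replicates of a condition, no test was made.

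Every site of the 4 genes is accounted for. Values per cell are given for the site of each gene edited in most cells and, for pairs at most 30 nucleotides apart, for the cells edited at both sites, and beside them for cells that set a mean or a coefficient. The genes, gene lists and rules were chosen with earlier results of these data known. The pair correlation and the bulk interval were tested on simulated data, and the other procedures were not. The simulated cell values were normally distributed, unlike the observed rates, most of which were 0. Python 3.11.15, NumPy 2.4.6, SciPy 1.17.1, pandas 2.3.3, samtools 1.23.1 and matplotlib 3.10.9 were used. Alternatives were minimum depth and edited reads in bulk, thresholds on the rate of a cell, uncovered cells as 0, medians, Spearman's rho, complete cells, and leaving out each cell.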

Additional observations from a re-analysis of the deposited data

How the results depend on the processing

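Requiring 30 reads, or 5 edited reads, in bulk kept 11 of the 12 pump gene sites, and all 7 sites in both lists kept 30 reads. Counting a cell as edited from 5% or 10% left 9 or 8 sites edited in at least 6 cells, and leaving out 1 cell left 8 or 9. With uncovered cells as 0 the means over cells ran from 3.72% to 19.8%, with Atp6v1c1 moving from 10.3% to 5.58%, and medians over covered cells, used in place of means, ran from 0% to 3.85%. The ratio of single-cell mean to bulk rate had a median of 0.744 with uncovered cells as 0 and with 30 reads required, and was between 0.625 and 0.776 with 1 cell left out. The median correlation of Atp6ap2 pairs was 0.11 by Spearman's rho, 0.07 over cells covered at all sites, and between 0.03 and 0.13 with 1 cell left out, the highest without cell 14. That of Atp6ap1 was 0.27 by Spearman's rho and between 0.16 and 0.25 with 1 cell left out. An A stood before the edited cytidine at 83.3% of bulk and 88.2% of single-cell sites of the pump genes. Leaving out cells for the closest pairs, the highest pair and the most similar sites was chosen after seeing the data. Correlations between sites used values of the same cell. No pairing between the bulk libraries and the single cells was possible, with 1 bulk library per genotype and cell columns without names. The main limits are the unknown depth in single cells, 1 bulk library per genotype, and lists that were filtered on editing.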
